A study of Mus musculus with 24 samples.

Results

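Genes of the TGF-beta pathway, the extracellular matrix and the mesenchymal state were followed in mpkCCD cells, an epithelial mouse line derived from cortical collecting ducts. The set held 40 of the 54432 genes in the deposited tables, chosen from a list of symbols and matched by Ensembl identifier. It comprised 3 ligands, 2 receptors, 3 signalling SMADs, 3 inhibitors, 4 matricellular proteins, fibronectin, 6 collagen chains, 5 laminin chains, 3 protease inhibitors, 4 proteases, 1 crosslinking enzyme and 5 mesenchymal genes. All 40 passed the filter on low counts. By the labels, the cells were wild type and of C57BL/6 origin, and had spent 6 days on permeable filters and then 24 h in minimum medium. Vehicle or dDAVP, a vasopressin analogue that acts on the V2 receptor, was then given from the basolateral side for 3, 6, 12 or 24 h. Treatment and time made 8 groups, with 3 libraries in each.

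TGF-beta ligands bind a type II receptor that activates a type I receptor, which phosphorylates Smad2 and Smad3. These enter the nucleus with Smad4, and Smad6, Smad7 and Skil restrain the pathway. In epithelia the pathway is known for inducing matrix proteins, protease inhibitors and the transcription factors of epithelial-mesenchymal transition, among them Snai1, Snai2 and Zeb1.

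Library totals ran from 17.2 to 27.6 M (mega) estimated counts. They differed in the share of counts that fell on 1459 olfactory and vomeronasal receptor genes, from 0.135% to 0.901%. For 3, 6, 12 and 24 h, the group means of this share were 0.629%, 0.526%, 0.477% and 0.226% under vehicle and 0.374%, 0.196%, 0.335% and 0.201% under dDAVP. Comparisons were therefore read from a model without this share and from a model with its log2 as a covariate, which lowered the biological coefficient of variation from 0.191 to 0.0798. At 6 h the share ran from 0.443% to 0.581% under vehicle and from 0.135% to 0.276% under dDAVP, without overlap. Share and treatment cannot be told apart at that time, so a call lost with the covariate does not show that dDAVP had no effect. Of 12 principal cell markers, 9 had a mean above 1 TPM over the libraries of both treatments, whereas Aqp4, Scnn1b and Elf5 were below it. Aqp2 was among the 9, with a mean of 37.6 TPM and libraries from 1.78 to 101 TPM. The labels name no separate cultures, so p-values measure the spread between libraries, which may be technical.

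The level of the members, per transcript length, ran from the matricellular protein Cyr61 with a mean of 115 TPM over the 24 libraries to the transcription factor Snai1 at 0.115 TPM. Above 10 TPM were 14 members, 15 lay between 1 and 10 TPM, and 11 were below 1 TPM. The highest after Cyr61 were Col18a1 (collagen XVIII, a basement membrane collagen) at 63.1 TPM, the metalloprotease inhibitor Timp2 at 50.4 TPM, Ctgf at 40.6 TPM and the laminin chain Lama5 at 34.8 TPM. Thbs1, which can activate latent TGF-beta, had a mean of 27.9 TPM, Lamb1 26.8 TPM and fibronectin (Fn1) 25.3 TPM. Among structural matrix members, the basement membrane chains Col18a1 and Lama5 had the highest mean TPM. Lamb1 and Fn1 differed by less than their spread over the libraries (SD 4.13 and 4.01 TPM). The 11 members below 1 TPM were the interstitial collagen genes Col1a1, Col1a2 and Col5a1, Tnc, the gelatinases Mmp2 and Mmp9, and all 5 mesenchymal genes (Vim, Snai1, Snai2, Zeb1 and Cdh2). Vim, which encodes the mesenchymal filament protein vimentin, had a mean of 0.280 TPM and at least 2 counts in each library. Of 9 fibroblast markers only Thy1 (4.01 TPM) had a mean above 1 TPM. Pecam1 (1.47 TPM) was the single one of 6 endothelial markers above it, Cd68 (3.66 TPM) of 6 leukocyte markers, Lrp2 (2.65 TPM) of 6 proximal tubule markers and Atp6v1b1 (4.88 TPM) of 7 intercalated cell markers. In bulk RNA, fewer cells of a type and less RNA per cell cannot be told apart.

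**Figure D1:**
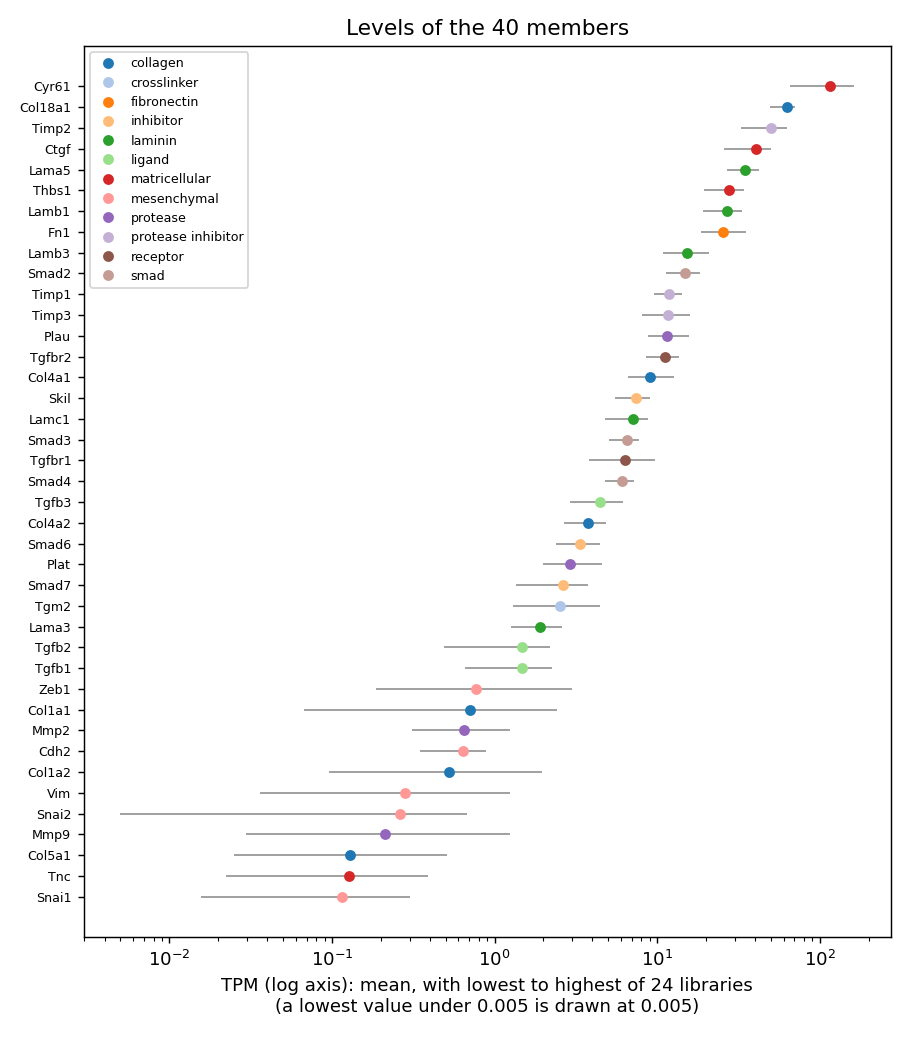
Levels of the 40 members in TPM on a log axis; points are means and grey lines run from the lowest to the highest of the 24 libraries, coloured by role. Cyr61 leads at 115 TPM, and the mesenchymal genes lie below 1 TPM.

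Of the 40 members, Tgm2 was the one that rose with dDAVP in both models, and most other calls were made in 1 model only. Without the covariate, edgeR called 0 of 40 members after 3 h of dDAVP (0.484% of all genes tested were called), 19 after 6 h (38.1%), 1 after 12 h (0.0773%) and 1 after 24 h (0.0841%). The mean effect over the times called 12 members (33.1%), 8 higher and 4 lower. That split turned to 1 higher and 8 lower of 29 members tested when genes below 5 CPM were removed, and to 0 higher and 18 lower with limma on log2(TPM + 1). Over all genes the median on that scale was -0.13, and the share of all genes called is not given for these settings. These splits are no result about the members. The change within vehicle from 3 to 24 h called 18 (38.0%). With the covariate, edgeR called 0 of 40 after 3 h (0.726%), 1 after 6 h (0.336%), 1 after 12 h (0.296%), 2 after 24 h (0.35%), 2 for the mean effect (1.22%) and 0 within vehicle (0.699%). For the late effect (24 h) less the early one (3 h), edgeR called 0 without the covariate (0.0202%) and 1 with it (0.215%). Where 0 were called without the covariate, 6 members at 3 h and 5 for late less early had an unadjusted p below 0.05, and DESeq2 called 0 in both. Where 0 were called with it, 4 members at 3 h and 6 within vehicle had an unadjusted p below 0.05. The share of all genes below that unadjusted threshold is not given, so these counts are no result about the members. Leaving out 1 library moved the mean-effect count to between 1 and 18 and the vehicle count to between 0 and 25, the 0 without vehicle replicate 1 at 3 h, which had the highest receptor share. Shares of members near or below those of all genes are no result about the members.

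Tgm2 was the member whose response to dDAVP passed the test in both models. Tgm2 encodes transglutaminase 2, which crosslinks matrix proteins through glutamine and lysine side chains and also binds GTP; the gene lies on chromosome 2 from 158116402 to 158146436 (GRCm38, minus strand). The annotation (GENCODE M21) gives it 4 transcripts. One codes for the protein (Tgm2-201, 3596 bases in 13 exons, 686 codons), and the others are a retained-intron transcript of 1876 bases, a transcript of 748 bases subject to nonsense-mediated decay, and a processed transcript of 352 bases. The coding sequence around the active-site cysteine, codon 277 in exon 6, is shown because it marks the enzyme's catalytic residue and separates the transcripts. The capitals mark the cysteine codon, and the stretch is chr2:158131335-158131385 (GRCm38), minus strand, from the GENCODE M21 transcripts.
Tgm2: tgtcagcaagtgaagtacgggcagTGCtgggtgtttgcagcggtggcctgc
Tgm2-201 and the retained-intron transcript hold this stretch, and the shorter pair does not.

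At 3 h, Tgm2 stood at 8.58, 8.90 and 10.1 CPM (counts scaled to a common library total, with TMM factors) in vehicle and at 11.2, 11.6 and 12.4 CPM in dDAVP. The groups did not overlap, but the log2 fold change of 0.35 (SE 0.13) did not pass the test (edgeR quasi-likelihood, Benjamini-Hochberg adjusted p = 0.365). At 6 h the vehicle libraries held 8.26, 7.77 and 7.17 CPM and the dDAVP libraries 16.5, 16.3 and 16.9 CPM. The dDAVP libraries lay within a narrow band well above all vehicle libraries, a log2 fold change of 1.10 (SE 0.13, edgeR adjusted p = 1.22e-05). At 12 h the values were 8.37, 8.77 and 10.6 CPM in vehicle and 13.4, 15.9 and 16.1 CPM in dDAVP. The log2 fold change was 0.71 (SE 0.13, edgeR adjusted p = 0.0198). It did not pass when vehicle replicate 1 (adjusted p = 0.225), dDAVP replicate 2 (0.232) or dDAVP replicate 3 (0.228) was left out. Nor did it pass with median-of-ratios size factors in place of TMM, with no filter, or with only the libraries compared. It was also lost without the 2 libraries of highest receptor share. At 24 h vehicle libraries held 8.01, 7.29 and 8.48 CPM and dDAVP libraries 17.02, 17.6 and 20.3 CPM. This was the widest separation of the 4 times, with a log2 fold change of 1.21 (SE 0.13, edgeR adjusted p = 6.96e-06).

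The mean effect of dDAVP on Tgm2 over the 4 times was 0.84 on the log2 scale (SE 0.06, edgeR adjusted p = 1.76e-09). In TMM-scaled CPM, dDAVP libraries were higher than all vehicle libraries of their time at 4 of 4 times, although the 3 h difference did not pass. With the receptor share in the model the log2 fold changes were 0.35, 1.09, 0.71 and 1.21 at 3, 6, 12 and 24 h. The effect at 24 h exceeded that at 3 h by 0.85 on the log2 scale without the covariate (edgeR adjusted p = 0.188) and by 0.86 with it (SE 0.15, edgeR adjusted p = 0.0103). Within vehicle, Tgm2 at 24 h differed from 3 h by -0.21 on the log2 scale (edgeR adjusted p = 0.175).

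The authors' TPM did not show the same separation for Tgm2. At 24 h it stood at 1.30, 1.66 and 3.15 TPM in vehicle and at 2.67, 2.56 and 3.18 TPM in dDAVP, and the groups overlapped. At 3 h the means were 3.34 ± 1.20 TPM in vehicle and 2.09 ± 0.120 TPM in dDAVP (SD, n = 3), the opposite order to the CPM. On log2(TPM + 1), limma gave log2 differences of -0.45 at 3 h, 0.07 at 6 h, 0.04 at 12 h and 0.37 at 24 h (lowest adjusted p = 0.208). TPM divides a count by the effective length assigned to the gene in that library, so the ratio of count to TPM follows that length once each library's scale is taken out. For Tgm2 this relative length was below 0.9 of its median in 9 of 12 vehicle libraries, down to 0.475 in vehicle replicate 1 at 12 h. It was below 0.9 in 1 of 12 dDAVP libraries, where it ran from 0.842 to 1.07. Other members had uneven relative lengths too. Tgfbr1 was below 0.9 of its median in 7 of 12 vehicle and 0 of 12 dDAVP libraries, and Col1a2 and Vim in 7 and 3. The order was the other way for Mmp2 (1 and 6) and Mmp9 (3 and 7), and Cyr61 stayed between 0.996 and 1.01 in all 24 libraries. The scale of CPM against that of TPM moved too, and TMM factors from 0.814 to 1.33 enter the CPM. Cyr61, of steady length, had 6 h means of 377 CPM in vehicle and 545 CPM in dDAVP, and of 132 TPM in both. The rise of Tgm2 therefore stands on TMM-scaled read counts per gene. The length assigned to Tgm2 was shorter in most vehicle libraries, and the scale of CPM against TPM differed between treatments at 6 h. The cause of either, and the part of each in the gap between CPM and TPM, was not tested.

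**Figure D2:**
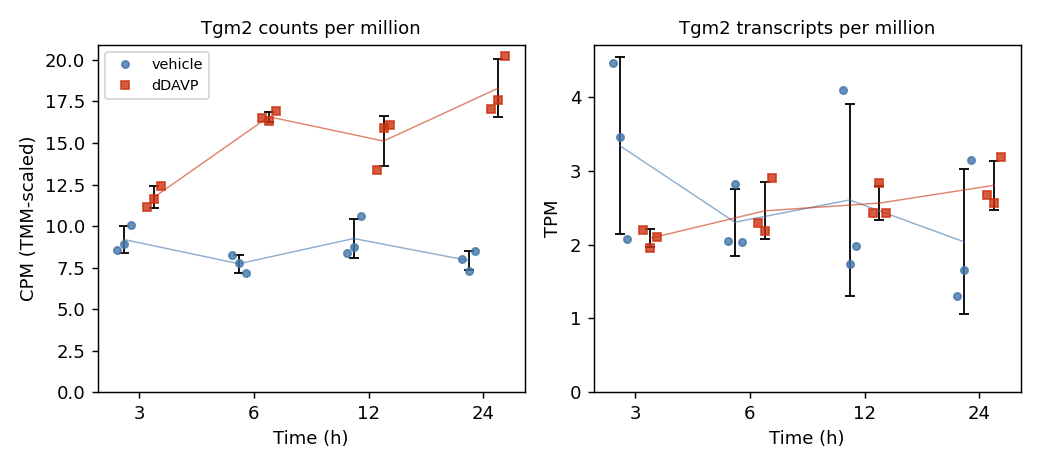
Tgm2 in each library by time, as TMM-scaled CPM (left) and as the authors' TPM (right); circles are vehicle, squares dDAVP, and black bars are mean ± SD of 3 libraries. In CPM dDAVP libraries at 24 h lie at 17.02 to 20.3 and vehicle libraries at 7.29 to 8.48, whereas in TPM the groups overlap.

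Matricellular proteins are secreted into the matrix and modulate cell signalling rather than building fibres. Cyr61 and Ctgf, 2 members of the CCN family, varied over time in dDAVP in both models, with their lowest mean at 12 h. This test over the 4 times within 1 treatment was added after the values had been seen. Among all genes tested, 2.28% were called over time in dDAVP without the covariate and 8.99% with it; of the members, 7 and 11 of 40 were called, and the 7 were among the 11. They were Cyr61, Ctgf, Plau, Plat, Timp3, Smad7 and Tgm2, and the further 4 were Tgfbr1, Timp2, Lama3 and Fn1. These calls depended on scaling. With median-of-ratios size factors in place of TMM, and no covariate, 1 member was called over time in dDAVP and 1 in vehicle. The share of all genes called is not given for that setting.

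In dDAVP, Cyr61 stood at 337, 530 and 465 CPM at 3 h, 502, 652 and 480 CPM at 6 h, 244, 249 and 239 CPM at 12 h, and 444, 392 and 392 CPM at 24 h. All 3 libraries at 12 h lay below every dDAVP library of the other times (edgeR F test over the 4 times, adjusted p = 0.00128, and 1.1e-06 with the covariate). In vehicle, Cyr61 stood at 255, 358 and 386 CPM at 3 h, 354, 364 and 411 CPM at 6 h, 204, 285 and 230 CPM at 12 h, and 372, 447 and 361 CPM at 24 h. The vehicle mean was lowest at 12 h too, although 1 library at 3 h lay within the 12 h range (edgeR F test, adjusted p = 0.0269, and 0.000106 with the covariate). Between treatments at 12 h Cyr61 was at 240 ± 41.3 CPM in vehicle and 244 ± 4.83 CPM in dDAVP (SD, n = 3), a log2 fold change of 0.03 (edgeR adjusted p = 0.975).

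The upstream sequence of Cyr61 is shown because this gene was the CCN member with the higher level and the wider range of group means. The RefSeq promoter table (GRCm38.p6) held 21 of the 40 members; Tgm2, Ctgf, Plau and Plat were not among them. The window spans the 250 bases before the start site, chr3:145649986-145650235, minus strand. Capitals mark 2 motif matches, CATTCC (the reverse complement of GGAATG, the core bound by TEAD factors) at -103 to -98 and CGTCA (the reverse complement of TGACG, the shorter form of the cAMP response element) at -58 to -54.
Cyr61: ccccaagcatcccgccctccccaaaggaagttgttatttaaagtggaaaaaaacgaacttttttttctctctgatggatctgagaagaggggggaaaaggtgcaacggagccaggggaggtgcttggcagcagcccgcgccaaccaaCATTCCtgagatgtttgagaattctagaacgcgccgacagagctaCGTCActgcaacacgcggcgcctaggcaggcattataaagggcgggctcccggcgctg
On either strand, GGAATG was in 12.6% and TGACG in 17.8% of all 32851 windows of this length. Each was in 4 of the 21 members (Lamb3, Cyr61, Col18a1 and Timp1 for GGAATG, and Tgfb2, Lama5, Cyr61 and Timp1 for TGACG). The full cAMP response element TGACGTCA was in 1.55% of all windows and in 0 of the 21, and CAGAC, a box bound by SMADs, was in 42.2% and in 11 of the 21. The matches describe letters only.

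Ctgf, the connective tissue growth factor and a textbook TGF-beta target, followed the same course at a lower level. Its CPM in dDAVP was 147 ± 23.0 at 3 h, then 205 ± 28.6 at 6 h, 115 ± 5.98 at 12 h and 162 ± 12.7 at 24 h (SD, n = 3; edgeR F test, adjusted p = 0.0143, and 0.00192 with the covariate). In vehicle it was 140 ± 34.2, 148 ± 7.44, 115 ± 22.4 and 167 ± 9.39 CPM at the same times, and the F test gave adjusted p = 0.0827 without and 0.0221 with the covariate (edgeR). At 6 h, when 38.1% of all genes tested were called without the covariate, the dDAVP libraries (181, 237 and 198 CPM) lay above the vehicle libraries (141, 147 and 156 CPM). That log2 fold change was 0.47 without the covariate (edgeR adjusted p = 0.0265) and 0.06 with it (0.987).

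Plau and Plat encode the urokinase and tissue plasminogen activators, serine proteases that turn plasminogen into plasmin. In dDAVP, Plau fell from 61.7, 58.4 and 58.1 CPM at 6 h to 31.4, 32.9 and 37.8 CPM at 12 h, with no overlap (edgeR F test over the 4 times, adjusted p = 0.00803, and 0.000229 with the covariate). Its mean CPM was 44.7 ± 7.09 after 3 h and 41.3 ± 5.11 after 24 h. In vehicle its means were 44.3, 43.5, 33.6 and 39.8 CPM at 3, 6, 12 and 24 h (edgeR F test, adjusted p = 0.126, and 0.00513 with the covariate). Plat in dDAVP stood at 13.8, 17.5 and 14.7 CPM at 6 h and at 9.06, 9.51 and 9.17 CPM at 12 h (edgeR F test, adjusted p = 0.00533, and 9.79e-05 with the covariate). Its vehicle means were 12.5, 12.3, 9.31 and 10.3 CPM, so its means at 12 and 24 h were below those at 3 and 6 h under both treatments. Plaur, the urokinase receptor and no member, had a mean of 91.9 ± 6.74 CPM at 6 h and 53.7 ± 7.45 CPM at 12 h under vehicle, and 124 ± 7.96 and 56.6 ± 2.35 CPM under dDAVP (SD, n = 3). Plaur was called over time by edgeR under both treatments in both models.

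Over time in vehicle, 8 members were called without the covariate and 4 with it (Cyr61, Ctgf, Plau and Plat), against 10.1% and 2.59% of all genes; Cyr61 was the gene in common. The count without the covariate ranged from 0 to 22 when 1 vehicle library was left out, with every one of the 12 moving it by over 1.5 times. In dDAVP it ranged from 3 to 6, and the libraries that moved it by as much were the 6 h replicates 2 and 3, the 12 h replicates 1 and 2, and all 3 of 24 h.

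**Figure D3:**
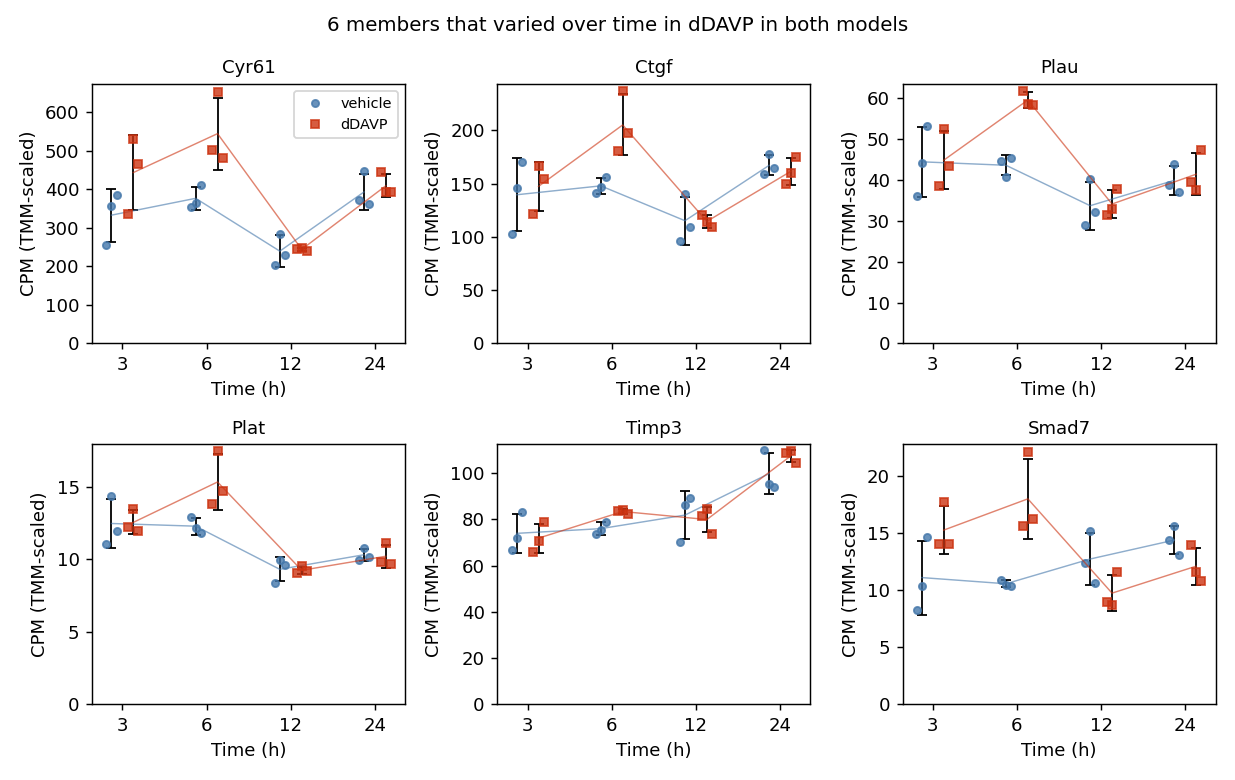
TMM-scaled CPM of 6 members by time; circles are vehicle libraries, squares dDAVP libraries, and black bars mean ± SD of 3 libraries. Cyr61, Ctgf, Plau and Plat have their lowest mean at 12 h under both treatments, and Timp3 its highest mean at 24 h.

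Timp3, a metalloprotease inhibitor that binds the matrix, moved the other way in CPM. Under dDAVP it stood at 66.1, 70.8 and 78.6 CPM after 3 h, 83.8, 84.2 and 82.1 CPM after 6 h, 81.4, 84.6 and 73.8 CPM after 12 h, and 109, 109.6 and 105 CPM after 24 h. All 24 h libraries lay above every earlier dDAVP library (edgeR F test, adjusted p = 0.00902, and 0.000804 with the covariate). In vehicle it was 73.9 ± 8.47 CPM at 3 h and 99.8 ± 8.93 CPM at 24 h (SD, n = 3), a log2 difference of 0.43 (edgeR adjusted p = 0.0082) that became 0.25 with the covariate (0.313). Timp2 was at 348 ± 25.0 CPM in dDAVP and 251 ± 25.5 CPM in vehicle at 6 h, and at 231 ± 30.7 and 308 ± 64.0 CPM at 12 h (SD, n = 3). The 6 h difference passed by a narrow margin without the covariate (edgeR adjusted p = 0.0498; log2 fold change 0.47), and with it the log2 fold change was -0.02. Timp1 had log2 fold changes of 0.42, 0.61, 0.16 and 0.01 at 3, 6, 12 and 24 h, and 0.21, 0.14, 0.09 and -0.04 with the covariate.

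The ligands had means below 5 TPM, and 1 was called at a single time of dDAVP. Tgfb3 at 24 h stood at 37.0, 31.4 and 30.3 CPM in vehicle and 24.2, 22.5 and 25.1 CPM in dDAVP, with no overlap. Its log2 fold change was -0.46 without the covariate (edgeR adjusted p = 0.826) and -0.48 with it (SE 0.10, edgeR adjusted p = 0.0172). In vehicle Tgfb3 was higher at 24 h than at 3 h by 0.62 on the log2 scale without the covariate (edgeR adjusted p = 0.00556), and by 0.33 with it (0.299). Tgfb2 had negative log2 fold changes at all 4 times, with a mean effect of -0.28 without the covariate (edgeR adjusted p = 0.0264) and -0.31 with it (0.136). Tgfb1 was at 2.68 to 5.07 CPM over the 24 libraries, and its mean effect was -0.15 on the log2 scale.

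The receptors Tgfbr1 (type I) and Tgfbr2 (type II) had mean dDAVP effects of 0.21 and 0.04 on the log2 scale, and 0.12 and -0.08 with the covariate. The first passed without the covariate (edgeR adjusted p = 0.0206) and not with it (0.54). On log2(TPM + 1) limma called Tgfbr1 lower (-0.22, adjusted p = 0.0388), where the median of all genes was -0.13. Smad2, Smad3 and Smad4 had 6 h log2 fold changes of 0.35, 0.29 and 0.51, of which Smad2 and Smad4 were called, and of -0.07, -0.05 and 0.01 with the covariate, none of them called.

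Among the inhibitors, Smad7, which targets the receptors for degradation and is itself induced by TGF-beta, had means on different sides of vehicle early and late. For 3, 6, 12 and 24 h, its level under vehicle was 11.1 ± 3.25, 10.6 ± 0.300, 12.7 ± 2.29 and 14.4 ± 1.26 CPM (SD, n = 3). Under dDAVP it was 15.3 ± 2.14, 18.0 ± 3.54, 9.75 ± 1.60 and 12.1 ± 1.63 CPM. The means in dDAVP were above vehicle at 3 and 6 h and below at 12 and 24 h. The 6 h log2 fold change was 0.77 (edgeR adjusted p = 0.0166), and 0.31 with the covariate (0.862). The late effect (24 h) less the early one (3 h) was -0.71 without and -0.55 with the covariate, and neither passed (edgeR adjusted p = 0.781 and 0.335). Smad6 had the same order, with log2 fold changes of 0.28, 0.52, -0.30 and -0.29 at 3, 6, 12 and 24 h. Skil had a mean effect of 0.22 on the log2 scale without the covariate and 0.07 with it.

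Fibronectin, laminins and basement membrane collagens showed small differences. At 6 h Fn1 stood at 260, 240 and 252 CPM in vehicle and 343, 319 and 313 CPM in dDAVP, without overlap. Its log2 fold change was 0.37 (edgeR adjusted p = 0.0286), at a time when 38.1% of all genes tested were called. With the covariate it was 0.12 (0.948), and on log2(TPM + 1) limma called Fn1 lower (-0.27, adjusted p = 0.0419). Of the 5 laminin chains, Lama3 and Lamb3 were called higher at 6 h without the covariate (0.40 and 0.28) and neither with it. Lamb1 had a mean effect of -0.06 without the covariate and -0.20 with it (SE 0.05, edgeR adjusted p = 0.0354). Its mean CPM in dDAVP was 0.887, 1.06, 0.970 and 0.916 times that in vehicle at 3, 6, 12 and 24 h, and the groups overlapped at each time. Col18a1 was called higher at 6 h (0.38; 0.11 with the covariate). Col4a1 and Col4a2, the chains of the main collagen IV network, had mean effects of 0.06 and -0.04, and -0.08 and -0.13 with the covariate. This pair lies head to head on chromosome 8 (Col4a1 from 11198423 to 11312826 on the minus strand, Col4a2 from 11312805 to 11449287 on the plus strand, GRCm38). The genes overlap only from 11312805 to 11312826, and only reads wholly within that stretch need strand to be assigned.

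The 6 h calls divided by level. All 15 members called higher had a mean of at least 5 CPM, as did 28 of the 40, and the 4 called lower (Vim, Zeb1, Col1a2 and Col5a1) were among the 12 members below 5 CPM. Over all genes tested 20.9% were called higher and 17.2% lower, and their median log2 fold change was -0.39, with a members' median of 0.22. With the covariate these medians were 0.04 and 0.02. The split of the members' calls moved to 8 higher and 4 lower with median-of-ratios size factors in place of TMM. It was 2 and 2 of the 29 members tested after genes below 5 CPM were removed, which leaves out most low members, and 0 and 9 with limma on log2(TPM + 1), which changes the measure and the model together. The median of all genes on log2(TPM + 1) was -0.23, and the share of all genes called is not given for these settings. Leaving out any 1 of the 6 libraries at 6 h brought the count from 19 to between 1 and 9.

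Zeb1, a repressor of epithelial genes, shows the pattern of the low members. At 6 h it stood at 3.48, 2.77 and 2.73 CPM in vehicle and 0.932, 0.888 and 1.17 CPM in dDAVP, and across vehicle at 3 h it ran from 0.925 to 4.70 CPM. The 6 h log2 fold change was -1.57 (edgeR adjusted p = 0.0194), and -0.24 with the covariate (0.979). Summed over the 12 low members, the highest value was 33.2 CPM in vehicle replicate 1 at 3 h, which also had the highest receptor share, 0.901%. The lowest was 11.5 CPM in dDAVP replicate 2 at 24 h, with a share of 0.152%. Libraries with more counts on receptor genes tended to have more counts on the low members; the part of this share in the calls was tested only through the covariate.

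**Figure D4:**
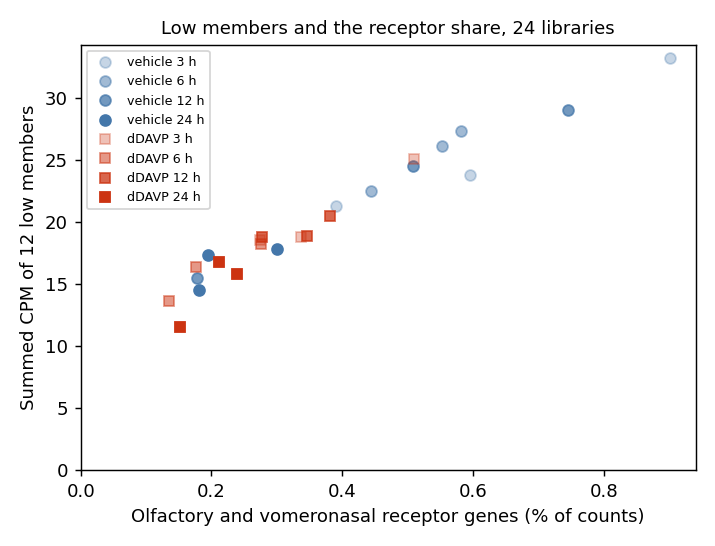
Summed CPM of the 12 members below 5 CPM against the percent of counts on olfactory and vomeronasal receptor genes, 1 point per library; circles are vehicle, squares dDAVP, and darker points later times. Libraries run from 11.5 CPM at a share of 0.152% to 33.2 CPM at 0.901%.

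**Figure D5:**
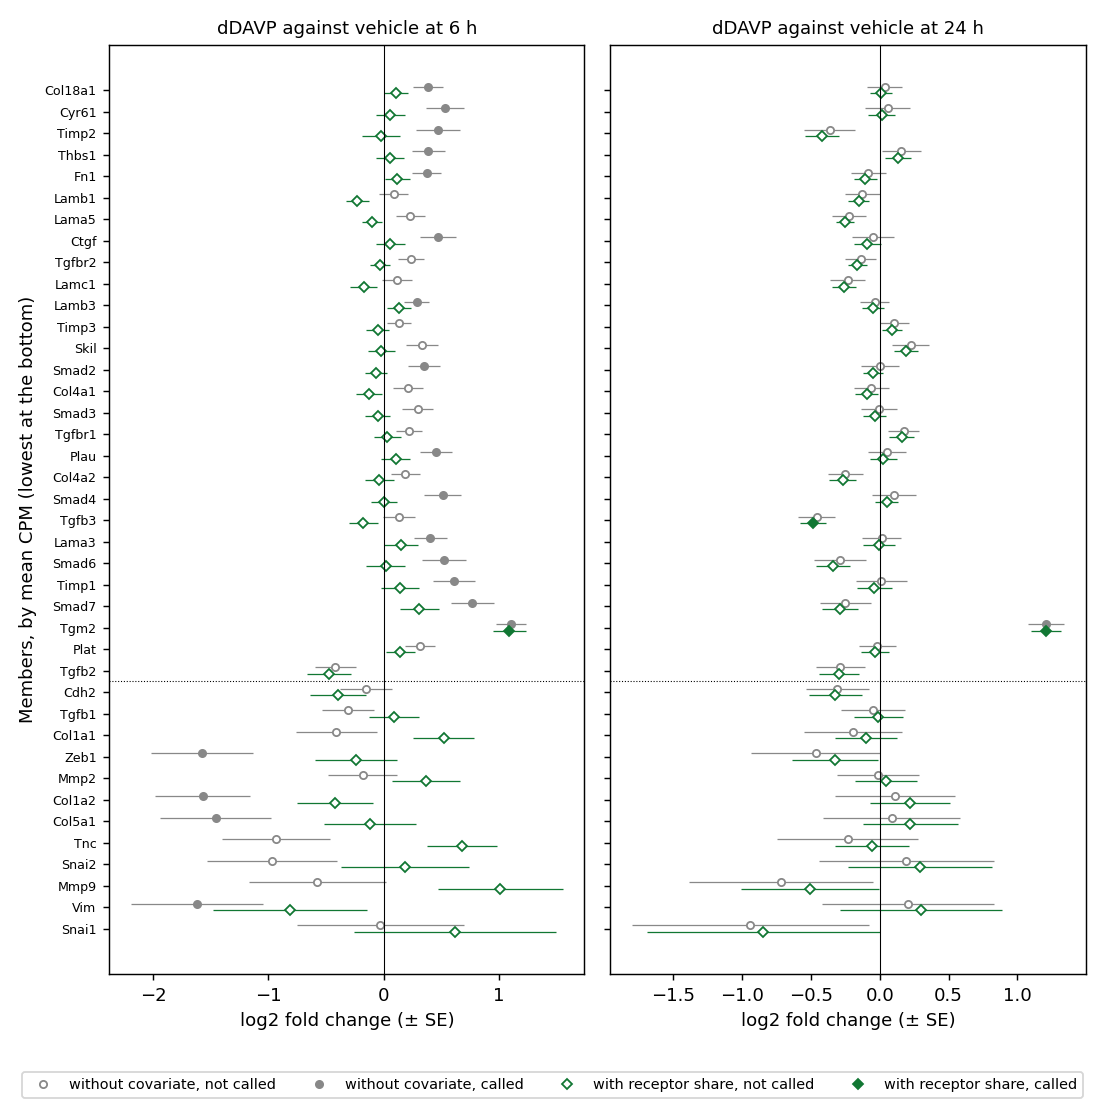
Log2 fold change (± SE) of dDAVP against vehicle for the 40 members at 6 h and 24 h, ordered by mean CPM; circles are the model without and diamonds the model with the receptor share, filled where called, and the dotted line marks 5 CPM. With the covariate Tgm2 is the filled diamond at 6 h, and Tgm2 and Tgfb3 are those at 24 h.

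Wider lists of the same processes gave the same contrast between models at 6 h, where 20.9% of all genes tested were called higher and 17.2% lower without the covariate, and 0.336% were called with it. At that share, counts of 0 with the covariate are no result about these lists. Of 47 other TGF-beta superfamily genes tested, 20 were called higher and 4 lower by edgeR without the covariate, and 0 with it. Of 56 other matrix genes 5 were higher and 19 lower, of 26 integrins and matrix receptors 8 and 5, of 14 other mesenchymal genes 3 and 3, and of 9 other transglutaminases 0 and 5. All of these counts were 0 with the covariate. Of 20 epithelial genes that are lost in mesenchymal transition, 16 were higher and 0 lower, and 0 were called with the covariate. Of 28 other matrix proteases and inhibitors, 6 were higher and 5 lower, and 1 was called with the covariate. It was Mmp15, a membrane-anchored metalloprotease, at 11.0 ± 0.349 CPM in vehicle and 7.51 ± 1.22 CPM in dDAVP at 6 h (SD, n = 3). Its mean effect was -0.49 without (edgeR adjusted p = 0.000189) and -0.57 with the covariate (1.43e-05), and the dDAVP mean was below vehicle at 4 of 4 times. Over the 199 genes of these lists, 24 had an unadjusted p below 0.05 at 6 h with the covariate. The share of all genes below that threshold is not given, so this count is no result about the lists. For the mean effect with the covariate (1.22% of all genes called), 1 of the 20 epithelial genes was called higher and 1 lower, with a median of 0.01 on the log2 scale. Krt19, a keratin of simple epithelia, had a mean effect of 0.39 without the covariate (edgeR adjusted p = 0.00128) and 0.22 with it (0.00545). Dsp, which encodes the desmosomal protein desmoplakin, had -0.07 without (edgeR adjusted p = 0.409) and -0.28 with it (6.47e-05).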

How the data were processed

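RNA was measured in 24 libraries (8 groups of 3). The authors deposited estimated counts per Ensembl gene, without normalization, and TPM in the same layout. Salmon 0.14.10 and GRCm38.p6 are named per the submitters' processing notes; whether strand was used is not stated in the labels used. RNA was amplified with a SMART-Seq kit and Nextera libraries, per the labels' protocols. One 57-base miRNA gene, Gm24245, held 37.4% to 51.7% of each TPM total, which scales all other TPM values. At 6 h it held 43.2% to 46.9% in vehicle and 49.0% to 51.7% in dDAVP.

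Estimated counts were rounded and analysed with edgeR 4.0.16 in R 4.3.3 (TMM scaling, filterByExpr, 29743 genes kept, 1 mean per group over all libraries, quasi-likelihood F test, Benjamini-Hochberg adjustment over all genes tested, threshold 0.05). Every adjusted p of a gene comes from this test unless limma (3.58.1) or DESeq2 (1.42.0) is named. SE is the log2 fold change divided by the square root of F. The same model was fitted with the log2 share of counts on 1459 protein-coding receptor genes (1135 olfactory, 324 vomeronasal). Members and lists, and this covariate, were chosen with earlier results of these data known. The F tests over time were added after the values were seen. Members were described library by library by rule if called in both models in a comparison of treatments or of vehicle times, which named Tgm2; Cyr61, Ctgf, Plau, Plat, Timp3, Tgfb3, Fn1 and Zeb1 were chosen after their values were seen. The other lists were counted, and their genes named if called in both models.

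Symbols came from GENCODE M21, where Cyr61 is Ccn1 and Ctgf is Ccn2 (matched through RefSeq synonyms). Relative length is the count divided by TPM, scaled per library by the median over 9226 genes with over 200 counts in every library. No 2 libraries agreed within sampling noise (lowest chi-square per gene 2.52). The model was tested on simulated counts with known changes. Same-numbered replicates did not deviate together (23 of 84 pairs had a correlation over 0.1), so the numbers were not taken as pairs.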

Additional observations from a re-analysis of the deposited data

Results flagged for a closer look

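The effect of dDAVP on Tgm2 differed between times: at 24 h it was larger than at 3 h by 0.86 on the log2 scale when the receptor share was in the model (edgeR adjusted p = 0.0103). It was brought up because the difference between the effects was itself tested. Without the covariate the difference was 0.85 and did not pass (edgeR adjusted p = 0.188), and by DESeq2 it was 0.80 (adjusted p = 0.76). In CPM the dDAVP libraries were above all vehicle libraries at 3 h and at 24 h.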

How the results depend on the processing

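Counts below are members called, with edgeR unless named. Apart from the covariate alone, these settings come without the share of all genes called, so their counts are no result about the members. Covariate: 1 at 6 h, 2 at 24 h, 2 for the mean effect, 1 for 24 h minus 3 h, 0 for vehicle, 4 over time in vehicle and 11 in dDAVP; the replicate block with the covariate gave the same numbers. Covariate with the 5 CPM filter: 1 at 3 h, 1 at 6 h, 3 at 24 h, 5 mean, 1 for 24 h minus 3 h, 2 vehicle, 16 over time in dDAVP. The 5 CPM filter alone: 1 at 3 h, 4 at 6 h, 3 at 24 h, 1 for 24 h minus 3 h, 9 vehicle, 13 over time in dDAVP; the mean effect went from 12 (8 higher, 4 lower) to 9 (1 higher, 8 lower). RLE scaling: 12 at 6 h, 0 at 12 h, and 1 over time in vehicle and in dDAVP. No filter: 6 at 6 h, 0 at 12 h, 7 mean, 4 over time in vehicle. Limma on log2(TPM + 1) and (TPM + 0.1): 1 and 1 at 3 h, 9 and 12 at 6 h, 0 at 12 h and 24 h, 11 and 11 vehicle, and 18 for the mean effect, all 18 lower. Only the libraries compared: 0 at 12 h, 0 over time in vehicle and 11 in dDAVP. Without the 2 libraries of highest receptor share (vehicle replicate 1 at 3 h and at 12 h): 0 at 12 h, 1 mean, 4 vehicle, 13 over time in vehicle.

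Leaving out 1 library gave 0 at 3 h, 1 to 9 at 6 h, 0 to 1 at 12 h, 1 at 24 h, 1 to 18 for the mean effect, 0 for 24 h minus 3 h, 0 to 25 for vehicle, 0 to 22 over time in vehicle and 3 to 6 in dDAVP. Tgm2 was lost at 12 h without vehicle replicate 1 or dDAVP replicate 2 or 3. On log2 TPM, limma called some genes in the opposite direction. Fn1 at 6 h turned to -0.27 and -0.28 (limma adjusted p = 0.0419 and 0.0319), and Lamb3 to -0.39 (0.1 added, 0.0474). Tgfbr1's mean effect turned to -0.22 and -0.25 (0.0388 and 0.0398), and Col4a1 in vehicle to -0.32 and -0.35 (0.0433 and 0.0482). The cause was not tested. The median of all genes at 6 h on that scale was -0.23 with 1 and -0.63 with 0.1 added. The replicate block alone gave 21 at 6 h, 13 mean, 21 vehicle and 12 over time in vehicle, and 56 of 56 gene results kept their call; 10 of 24 libraries correlated best with their own number. DESeq2 and limma were not run for the tests over time. Members below 5 CPM rest on few counts (Vim down to 2 in a library, Snai2 down to 0), which limits what can be seen for them.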

Other observations

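Of the 5 genes in the list of other matrix genes whose enzymes hydroxylate collagen chains, 4 were called over time under both treatments in both models, with their highest mean CPM at 12 h. Over all genes, 10.1% were called in vehicle without the covariate and 2.59% with it, and 2.28% and 8.99% in dDAVP. These genes were chosen after their values were seen. Calls over time depended on scaling, and RLE left 1 of the 40 members called under each treatment. P4ha2, a subunit of prolyl 4-hydroxylase, had means of 8.53, 7.76, 17.5 and 10.5 CPM in vehicle after 3, 6, 12 and 24 h, and of 8.33, 7.55, 23.6 and 10.2 CPM in dDAVP. P4ha1, the other subunit form, rose from 89.4 ± 15.1 CPM at 3 h to 185 ± 37.5 CPM at 12 h in vehicle, and from 110 ± 24.4 to 231 ± 2.75 CPM in dDAVP (SD, n = 3). The lysyl hydroxylases Plod2 (38.0 ± 7.18 CPM in vehicle and 51.0 ± 3.12 CPM in dDAVP) and Plod1 (29.4 ± 2.45 and 35.8 ± 1.86 CPM) are given here at 12 h; Plod1 in vehicle at 24 h was at 27.9 ± 1.92 CPM, within the spread of its 12 h value. The test was the edgeR F test over the 4 times. Plod3 had a mean of 54.0 CPM over the 24 libraries; it was called over time in vehicle without the covariate, and under neither treatment with it.

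Among other TGF-beta superfamily genes, Gdf15, a stress-responsive ligand, had its lowest means at 12 h, 26.2 ± 3.97 CPM in vehicle and 25.0 ± 0.299 CPM in dDAVP, against 36.4 ± 3.28 and 53.2 ± 6.72 CPM at 6 h (SD, n = 3). Ltbp1, which binds latent TGF-beta in the matrix, stood at 43.7 ± 4.16 CPM at 3 h and 29.0 ± 1.64 CPM at 24 h in vehicle, and at 43.6 ± 0.600 and 24.7 ± 2.67 CPM in dDAVP. Both were called over time by edgeR under both treatments and in both models. Sparc, a collagen-binding matricellular protein, was at 5.68 ± 0.489 CPM at 3 h and 11.3 ± 1.56 CPM at 24 h in vehicle, a log2 difference of 0.99 without the covariate (edgeR adjusted p = 0.000458) and 0.82 with it (0.00483). Of the wider lists it is the mesenchymal gene called in vehicle in both models.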
